A study of Mus musculus with 2 samples.

Results

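A set of 10 inflammatory response genes was followed through the somatic and immune cells of wild-type (WT) and Alkbh5-/- (KO) mouse testes. The genes were Irf1, Nfkbiz, Cxcl1, Cd52, Lcn2, Nfkbia, Ccl2, Cebpd, Icam1 and Socs3, 10 of the 36547 genes listed in the deposited counts of the 2 libraries together. All 10 had at least 1 UMI in each library. Irf1, Nfkbiz, Cxcl1, Cd52 and Lcn2 were selected on their higher values in KO cells of these same libraries, so their difference between the genotypes is a description and supports nothing further. The other 5 were added as partners in the same response, with the earlier results known. The data were 1 single-cell RNA library per genotype from the testis of 12-week-old C57BL/6 mice. Alkbh5 encodes an RNA demethylase that removes N6-methyladenosine, and homozygous KO mice were bred from heterozygous parents, the gene being absent from every cell of the animal. The methods describe testes of 3 mice per genotype and the introduction 1, so a library may pool animals. No difference given here has a replicate check, and the genotype cannot be told apart from the library.

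The acute inflammatory response is switched on in many cell types, not only in leukocytes. Bacterial products and cytokines such as TNF and interleukin 1 release NF-kB from its inhibitor, and NF-kB then drives chemokines, adhesion molecules and its own inhibitors, which close the loop. Interferon and the interleukin 6 family act through STAT factors, with IRF1, C/EBP delta and SOCS3 among the early products. In the testis, interstitial macrophages lie against the Leydig cells, which make testosterone, and Sertoli cells nurse the germ cells inside the tubule. Tissue dissociation by enzymes is itself known to induce immediate early genes and several of the genes described here.

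The WT library held 5756 barcodes with 80283221 unique molecular identifiers (UMIs, one per captured RNA molecule), and the KO library 7012 barcodes with 82056760. The 2 libraries shared 45 barcodes. Alkbh5 had 607 UMIs in WT and 5 in KO. Clustering gave 94 WT and 1171 KO Leydig-like cells (led by Cyp17a1, Hsd3b1 and Insl3, 16 of 16 markers detected), 48 and 468 Sertoli-like cells (Cst9, Cst12, Cldn11, 15 of 16), 26 and 81 macrophage-like cells (Lyz2, C1qc, Pf4, 19 of 20) and 1 and 24 endothelial-like cells (Cldn5, Emcn, 11 of 12). Germ-like cells numbered 5587 and 5268. Lcn2 was itself among the 10 leading genes of the Leydig-like cluster, and 9 of the 10 genes, all but Icam1, were among the variable features used for clustering. When these genes and all listed response genes were kept out of the clustering, the Leydig-like class held 93 WT and 1167 KO cells, 1260 of them the same cells. Median UMIs per cell were 10004 in WT and 7872 in KO Leydig-like cells, 8326.5 and 9147 in Sertoli-like cells, and 8467.5 and 7249 in macrophage-like cells. Levels are in CPM, the UMIs of a gene out of each 1000000 summed over the class, a unit without gene length, so levels are compared between cells and not between genes. All intervals are exact 95% intervals and cover counting error only.

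**Figure D1:**
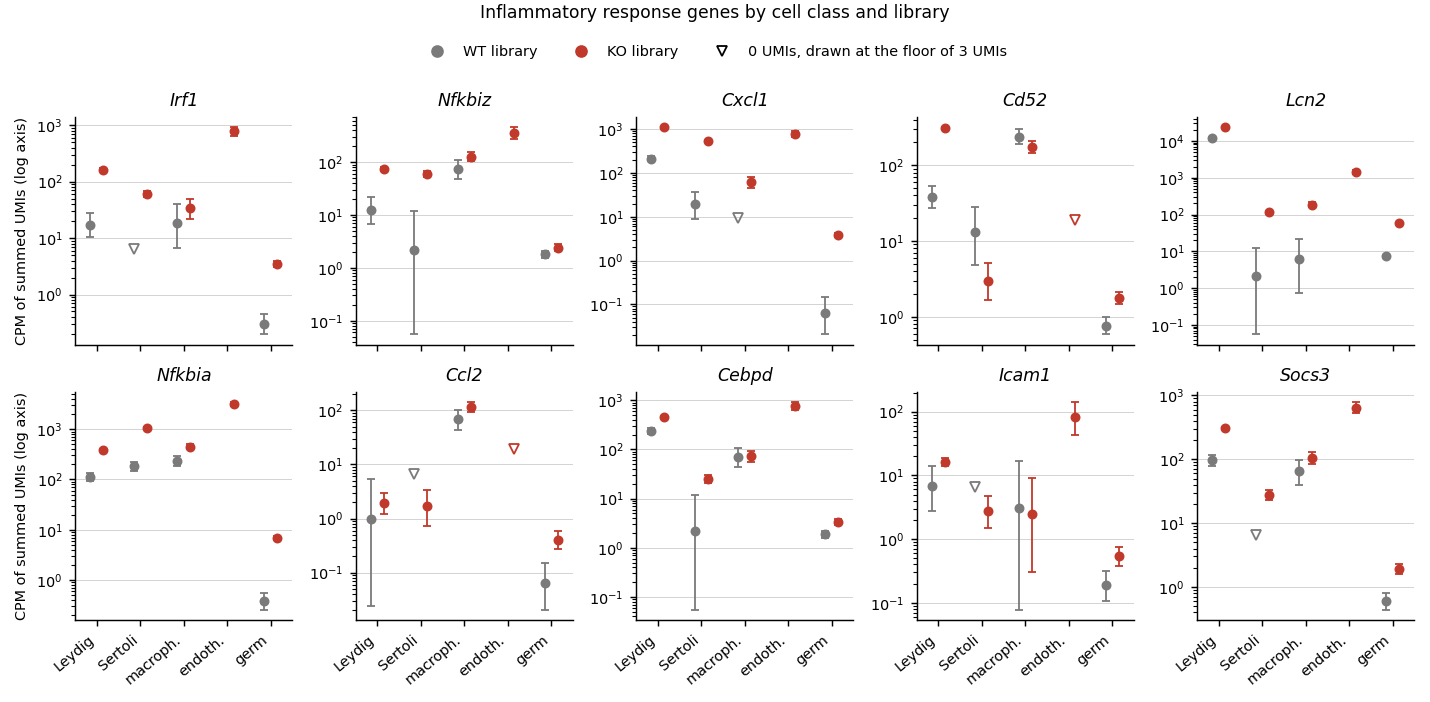
CPM (log axis) of each gene in 5 cell classes, WT library in grey and KO library in red, with exact Poisson 95% intervals; open triangles mark sums of 0 UMIs, drawn at the level of 3 UMIs, and the 1 WT endothelial-like cell is not drawn. In Leydig-like cells Irf1 stood at 17.4 CPM in WT and 163 in KO, while Cd52 in macrophage-like cells stood at 240 in WT, where a single cell held 45 of 78 UMIs, and 175 in KO.

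For 6 of the 10 genes the RefSeq promoter table of GRCm38.p6 held an entry (Irf1, with 2 starts, Cxcl1, Lcn2, Nfkbia, Icam1 and Socs3). The 250 bases before each start were searched on both strands for the kB consensus, the sequence bound by NF-kB. It was found before 3 of the 7 starts, against 7.25% of the 32851 windows of the table. Those 3 windows are shown 5′ to 3′ on the strand of the gene, with the consensus in capitals. They lie at chr11:53769764-53770013 (plus strand) for the first start of Irf1, chr5:90890995-90891244 (plus strand) for Cxcl1 and chr12:55492648-55492897 (minus strand) for Nfkbia.
Irf1: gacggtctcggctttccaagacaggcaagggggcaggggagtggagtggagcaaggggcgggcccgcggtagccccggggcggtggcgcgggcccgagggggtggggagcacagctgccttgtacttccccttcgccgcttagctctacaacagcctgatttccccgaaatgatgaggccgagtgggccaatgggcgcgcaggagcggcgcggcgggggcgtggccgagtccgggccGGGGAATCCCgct
Cxcl1: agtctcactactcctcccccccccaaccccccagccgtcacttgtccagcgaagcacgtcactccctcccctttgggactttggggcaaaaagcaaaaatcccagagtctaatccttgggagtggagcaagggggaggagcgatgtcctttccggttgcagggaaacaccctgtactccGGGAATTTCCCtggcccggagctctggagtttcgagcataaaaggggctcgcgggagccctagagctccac
Nfkbia: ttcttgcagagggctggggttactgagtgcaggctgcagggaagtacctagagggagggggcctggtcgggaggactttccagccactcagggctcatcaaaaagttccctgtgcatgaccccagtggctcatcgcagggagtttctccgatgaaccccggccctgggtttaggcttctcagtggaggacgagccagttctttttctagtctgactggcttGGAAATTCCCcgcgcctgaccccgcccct
The match before Irf1 covered bases 13 to 4 before the start. Cxcl1 had 2 overlapping matches on opposite strands, which together covered bases 71 to 61. The Nfkbia match read on the opposite strand and covered bases 29 to 20. No match to the consensus was found in the windows of Lcn2, Icam1, Socs3 or the second Irf1 start. The letters TTCNNNGAA, a STAT-type element, were found before the first Irf1 start, Icam1 and Socs3, against 7.02% of all windows. TATAAA (12.37% of all windows) and TGANTCA (6.75%) were in none of the 7. A match is a run of letters only, and occupancy was not measured.

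In Leydig-like cells 9 of the 10 genes had enough UMIs to be compared, and 7 of them were at least 2-fold higher in the KO library, with none at least 2-fold lower. A gene was compared if 10% or more of the WT or of the KO cells had a UMI of it and both libraries together gave 20 UMIs or more. Over all 7331 genes compared, 3.19% were at least 2-fold higher in KO and 11.9% at least 2-fold lower. The median log2 ratio of KO over WT was 1.81 over the 9 genes and -0.093 over all genes. Because 4 of the 7 were chosen for this direction, and because Irf1 and Icam1 passed the 10% limit through the KO cells alone, the count is a description. Summed over the class, the 9 genes had log2 ratios from 0.95 to 3.23.

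Irf1 (chromosome 11, 53770014 to 53778374 of GRCm38), the interferon regulatory factor that switches on antigen presentation and antiviral genes, had 18 UMIs in WT Leydig-like cells and 1674 in KO. This was 17.4 CPM (10.3 to 27.4) against 163 (155 to 171), a log2 ratio of 3.23 (2.57 to 3.99) or 9.40-fold, and the 8th highest of 7331. The intervals of the 2 libraries did not overlap, which is a description only, since Irf1 was chosen for higher values in KO. Nfkbiz (chromosome 16, 55811375 to 55838899), the nuclear IkB protein that steers NF-kB towards secondary response genes such as Lcn2, had 13 UMIs in WT and 757 in KO. Its level was 12.5 CPM (6.67 to 21.4) in WT and 73.7 (68.6 to 79.2) in KO, a log2 ratio of 2.56 (1.77 to 3.47), and of 1.84 after each cell was thinned to 4000 UMIs. Both genes were sparse in the WT cells, with no UMI in 90.4% of them for Irf1 and 89.4% for Nfkbiz.

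Nfkbia (chromosome 12, 55489410 to 55492647) encodes IkB alpha, which holds NF-kB in the cytoplasm and is re-made within minutes of its activation. In Leydig-like cells it had 115 UMIs in WT and 3989 in KO, or 111 CPM (91.5 to 133) against 388.5 (377 to 401). The log2 ratio was 1.81 (1.54 to 2.09). Socs3 (chromosome 11, 117966079 to 117970047), the feedback inhibitor of STAT3 signalling, had 101 UMIs in WT and 3230 in KO, or 97.4 CPM (79.3 to 118) against 315 (304 to 326). Its log2 ratio was 1.69 (1.41 to 1.99). In these sums both feedback genes were above 3-fold higher in KO. Over the alternatives the log2 ratio ran from 1.47 (each cell thinned to 4000 UMIs) to 2.08 for Nfkbia. For Socs3 it ran from 1.44 (mean of per-cell CPM) to 2.23, so the lowest value of each lay under 3-fold. Cebpd (chromosome 16, 15887286 to 15891031), a C/EBP transcription factor of the acute phase, was already found in 72.3% of WT cells and in 79.8% of KO cells. It stood at 237 CPM (208 to 269) in WT and 461 (448 to 474) in KO, a log2 ratio of 0.96 (0.77 to 1.15), just under 2-fold, and at 0.61 after each cell was thinned to 4000 UMIs.

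Cxcl1 (chromosome 5, 90891241 to 90893115), the chemokine that draws neutrophils through the receptor CXCR2, had 219 UMIs in 94 WT Leydig-like cells and 11205 in 1171 KO cells. Its level was 211 CPM (184 to 241) in WT and 1091 (1071 to 1112) in KO, a log2 ratio of 2.37 (2.18 to 2.57). Ccl2, the monocyte chemokine, had 1 UMI in WT and 20 in KO and was too rare in Leydig-like cells to compare. Icam1 (chromosome 9, 21015985 to 21028817), the adhesion molecule that binds leukocyte integrins, had 7 UMIs in WT and 166 in KO, or 6.75 CPM (2.71 to 13.9) against 16.2 (13.8 to 18.8). The log2 ratio of 1.26 had a wide interval (0.19 to 2.60). An Icam1 UMI was left in 5.32% of thinned WT cells (1.75 to 12.0) and 5.55% of thinned KO cells (4.31 to 7.02), and the log2 ratio was 0.36, so the difference in Icam1 was not detectable at equal depth. Transcripts of neutrophils themselves were nearly absent: of 10 neutrophil markers none had a UMI in WT Leydig-like cells, and 3 had 4 UMIs together in KO, with S100a8 and Ly6g at 0.

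Lcn2 (chromosome 2, 32384633 to 32388252), the iron-sequestering acute phase protein lipocalin 2, was a major Leydig-like transcript in both libraries. It had 12781 UMIs in WT, or 12320 CPM (12107 to 12536), and 243998 in KO, or 23763 CPM (23669 to 23858). The log2 ratio was 0.95 (0.92 to 0.97), under 2-fold, although Lcn2 was among the genes chosen for higher values in KO. Lcn2 had a UMI in 84.0% of WT cells and 96.6% of KO cells. Among the 77 WT and 1080 KO cells that stayed in the class at a finer clustering resolution of 0.8, these shares were 98.7% and 100%. Among the 17 WT and 91 KO cells that left it, they were 17.6% and 56.0%. The gap in the whole class thus depended on which cells were in it. The 16 Leydig markers together moved in the same direction, from 47303 CPM in WT to 60406 in KO, and the round spermatid markers in Leydig-like cells in the opposite one, from 1393 CPM to 330. Their part in the result was not tested.

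Cd52 (chromosome 4, 134082448 to 134095082), a small lipid-anchored surface glycoprotein best known from lymphocytes and myeloid cells, had 40 UMIs in WT Leydig-like cells and 3172 in KO. This was 38.6 CPM (27.5 to 52.5) against 309 (298 to 320), a log2 ratio of 3.0 (2.55 to 3.49) and the 10th highest of 7331. A Cd52 UMI was found in 22.3% of WT and 43.5% of KO Leydig-like cells as deposited, and in 10.6% (5.22 to 18.7) and 32.8% (30.1 to 35.6) after thinning. Thinned germ-like cells had one in 0.358% of WT and 0.569% of KO cells. The 20 macrophage markers in the same Leydig-like cells summed to 171 CPM in WT and 184 in KO, with a UMI for 11 of 20 markers in WT and 20 of 20 in KO. The 20 lymphoid markers summed to 19.3 CPM (7 of 20 with a UMI) in WT and 24.8 CPM (19 of 20) in KO. After the 6 WT and 92 KO Leydig-like cells with a UMI of Ptprc, Lyz2, Tyrobp, Fcer1g or Laptm5 were left out, the Cd52 log2 ratio was 3.10. This set does not hold Aif1, the macrophage marker with most UMIs here, found in 17.0% of WT and 14.4% of KO Leydig-like cells. Leaving out every cell with a UMI of any of the macrophage or lymphoid markers kept 58 WT and 785 KO cells, with Cd52 at 47.0 and 337 CPM and a log2 ratio of 2.84 (2.29 to 3.46). Of all Cd52 UMIs in the KO library 92.1% were in Leydig-like cells, while in the WT library 42.4% were in macrophage-like and 21.7% in Leydig-like cells. These shares also reflect the number of cells, 94 Leydig-like cells in WT and 1171 in KO. A single WT macrophage-like cell held 45 of the 78 UMIs of its class. Without it 33 were left, against 40 in WT Leydig-like cells.

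**Figure D2:**
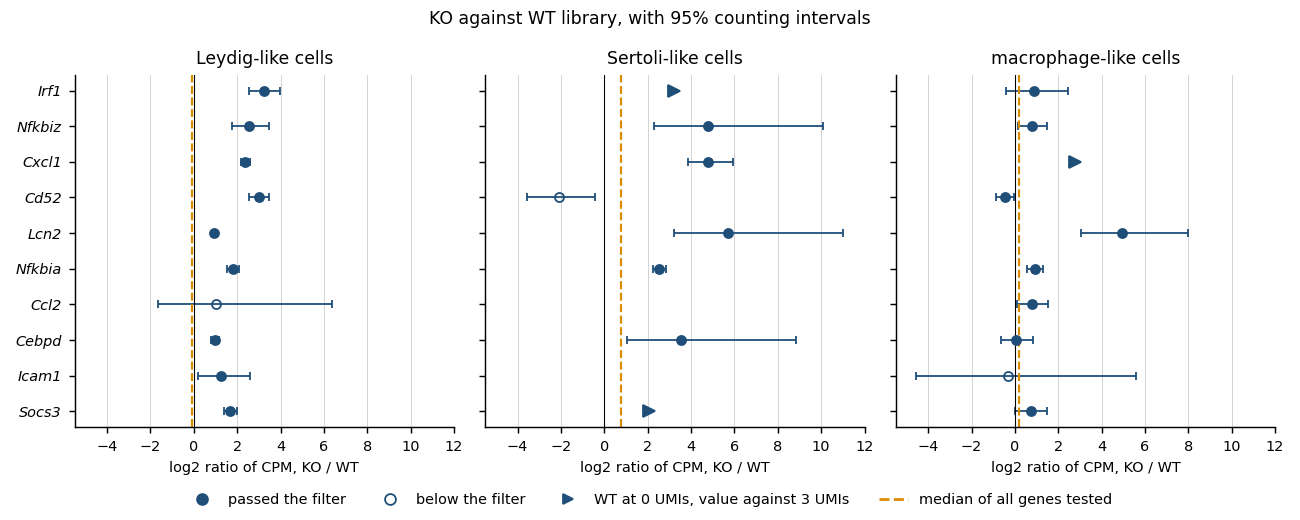
Log2 ratio of CPM in KO over WT for each gene in Leydig-like, Sertoli-like and macrophage-like cells, with exact 95% intervals; filled points passed the filter, open points did not, triangles are values against 3 UMIs where WT had 0, and the dashed line is the median of all genes compared. Sertoli-like Ccl2 and Icam1 are not drawn, since 0 WT UMIs and 8 and 13 KO UMIs give no direction. Cd52 lies at 3.0 in Leydig-like and at -0.46 in macrophage-like cells, where it was 0.76 without a single WT cell.

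Within the Leydig-like class the genes differed in how far their UMIs were concentrated in few cells. The highest 118 of 1171 KO cells held 65.4% of the Cd52 UMIs, 62.9% of the Nfkbiz UMIs and 44.7% of the Cxcl1 UMIs. They held 34.0% of the Socs3 UMIs and 30.3% of the Lcn2 UMIs. Cd52 and Socs3 had similar totals in these cells, 3172 and 3230 UMIs. A single KO cell had 101 Cxcl1 UMIs, whereas 27.2% of the KO cells had none. At 4000 UMIs per cell the median WT Leydig-like cell had UMIs for 2 of the 10 genes and the median KO cell for 4, and 7.45% of WT and 46.5% of KO cells had UMIs for at least 5. Across the 1171 KO cells the 45 pairs of genes had Spearman correlations from -0.093 to 0.484 with a median of 0.079. The highest pairs were Cxcl1 with Nfkbia (0.484, both found in 516 cells), Irf1 with Cxcl1 (0.465, 328 cells) and Irf1 with Nfkbia (0.445, 291 cells). Cells of 1 library share its preparation, so these values are a description.

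**Figure D3:**
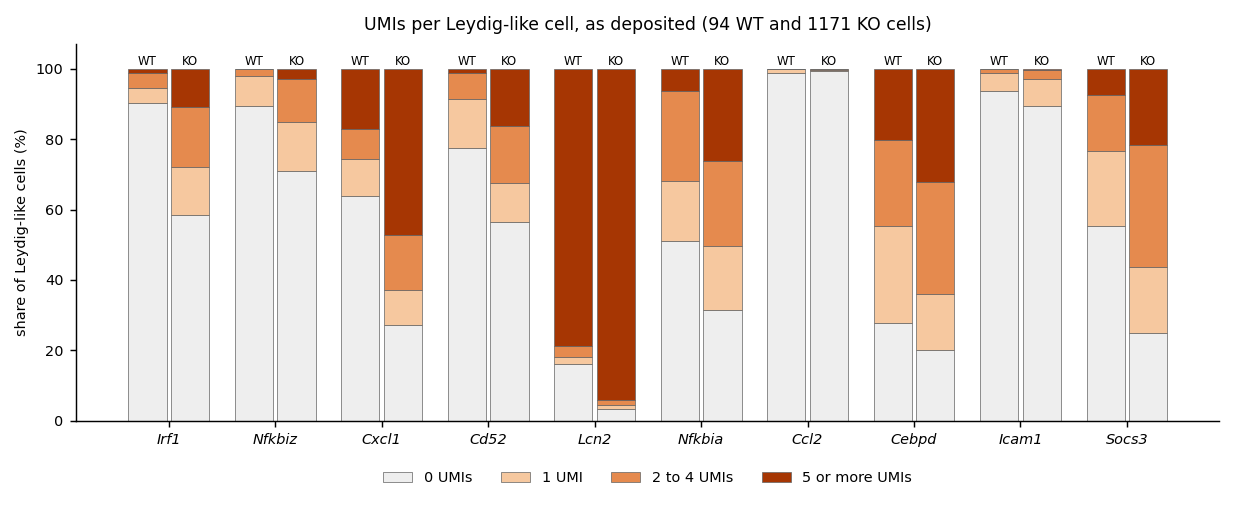
Share of the 94 WT and 1171 KO Leydig-like cells with 0, 1, 2 to 4, and 5 or more UMIs of each gene, as deposited and without thinning. Cells with at least 5 Cxcl1 UMIs were 47.2% of the KO cells, and cells with no Irf1 UMI were 90.4% of WT and 58.4% of KO cells.

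At a finer clustering resolution of 0.8, 17 WT and 91 KO cells left the Leydig-like class. In the whole class 12 fibroblast markers summed to 1018 CPM in WT and 561 in KO. Among the 77 WT and 1080 KO cells that stayed, 8 of 9 genes were at least 2-fold higher in KO, against 3.93% of all genes. Irf1 was at a log2 ratio of 3.07, Cd52 at 2.81, Cxcl1 at 2.17 and Lcn2 at 0.76. Leaving out every cell with a stromal transcript, which kept 53 WT and 609 KO cells, moved the log2 ratio of Irf1 to 5.17, of Cxcl1 to 2.98 and of Socs3 to 2.23. The whole WT class had 18 Irf1 UMIs in 9 cells, so the WT side of this Irf1 value rests on few counts. No interval is given for it, and it is not read as a larger difference.

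In Sertoli-like cells 7 of the 10 genes could be compared and all 7 were at least 2-fold higher in KO, but so were 39.2% of all 8709 genes compared, and 17.2% were at least 2-fold lower. The median log2 ratio of all genes was 0.75 there, so each value below should be read against that shift. The 48 WT Sertoli-like cells gave 460439 UMIs and the 468 KO cells 4653636, and elongating spermatid markers took 140614 CPM of them against 29323 CPM in KO. Sertoli markers stood at 10229 CPM in WT and 23246 in KO. The part of these differences in the values that follow was not tested. Of the 7 genes 6 passed the filter through the KO cells alone, Nfkbia being the exception.

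Nfkbia was the gene with the firmest Sertoli-like values, with 84 UMIs in WT and 4923 in KO. It stood at 182 CPM (146 to 226) in WT and 1058 (1028 to 1088) in KO, a log2 ratio of 2.54 (2.22 to 2.86). It was found in 41.7% of thinned WT cells (27.6 to 56.8) and 82.7% of thinned KO cells (79.0 to 86.0), against 2.85% of thinned KO germ-like cells. Sertoli-like cells held 48.2% of all Nfkbia UMIs of the KO library, more than the 39.0% in Leydig-like cells. Cxcl1 had 9 UMIs in WT and 2538 in KO, or 19.5 CPM (8.94 to 37.1) against 545 (524 to 567), a log2 ratio of 4.80 (3.88 to 5.93) and the 5th highest of 8709. The highest 47 of 468 KO cells held 50.2% of the Cxcl1 UMIs, and Cxcl1 and Nfkbia had the highest correlation of any pair in KO Sertoli-like cells (Spearman 0.591).

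Nfkbiz had 1 UMI in WT Sertoli-like cells and 276 in KO, a log2 ratio of 4.77 (2.28 to 10.08), and 2.07 after thinning. Irf1 and Socs3 had 0 UMIs in the 48 WT cells, with an exact upper limit of 8.01 CPM. The level of 3 counts there was 6.52 CPM. In KO Irf1 had 278 UMIs (59.7 CPM, 52.9 to 67.2) and stood 9.17-fold above the level of 3 WT counts, with an exact lower limit of 2.89 for the log2 ratio. Socs3 had 127 (27.3 CPM, 22.8 to 32.5) and stood 4.19-fold above that level, with a lower limit of 1.75. After thinning, the log2 ratios against 3 WT counts were 2.02 for Irf1 and 0.86, below 2-fold, for Socs3. Cebpd had 1 UMI in WT and 117 in KO, a log2 ratio of 3.53 (1.03 to 8.85). Cd52 did not follow the others, with 6 WT UMIs and 14 KO UMIs (13.0 CPM, 4.78 to 28.4, against 3.01, 1.64 to 5.05), below the filter.

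Lcn2 in Sertoli-like cells had 1 UMI in WT and 528 in KO, a log2 ratio of 5.71 (3.22 to 11.01). After thinning it was found in 16.7% of KO Sertoli-like cells (13.4 to 20.4), 24.7% of KO macrophage-like cells (15.8 to 35.5) and 15.4% of KO germ-like cells (14.4 to 16.4), with 18.6% in elongating spermatid-like cells. The share in germ-like cells was 3.01% in WT, a class in which the Lcn2 log2 ratio was 2.96. Over the 4 germ classes of the KO library the share ran from 11.5% to 18.6%. The Sertoli-like share lay within that range, and 98.1% of the KO Lcn2 UMIs were in Leydig-like cells. The Sertoli-like level in KO, 113 CPM (104 to 124), lay above the 57.6 CPM (55.8 to 59.5) of germ-like cells, with 80.3% of its UMIs in the highest 47 cells and 76 in a single cell. Free RNA and expression were not told apart here, and the Sertoli-like value is not read as a difference in expression. The KO endothelial-like cells stood above it, with an Lcn2 UMI in 91.7% of the 24 thinned cells (73.0 to 99.0).

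In macrophage-like cells 2 of the 9 genes compared (Cxcl1 and Lcn2) were at least 2-fold higher in KO and none at least 2-fold lower, against 18.4% and 9.44% of all 6681 genes. Both passed the filter through the KO cells alone and were chosen for higher values in KO, so the count is a description. It depended on which cells were in the class, as did the share of all genes at least 2-fold higher. At resolution 0.8 the count was 5 of 9 (11.4% of all genes), and 4 of 9 when the listed genes were kept out of the clustering (16.6%). It was 3 of 9 without doublets (17.3%) and 4 of 9 without the WT cell that had most Cd52 UMIs (18.7%). At resolution 0.8 the class grew to 48 WT and 214 KO cells, and the Irf1 log2 ratio there was 2.78. The median log2 ratio was 0.77 over the 9 and 0.17 over all genes. Cxcl1 had 0 UMIs in the 26 WT cells, with an exact upper limit of 11.3 CPM, and 50 in 81 KO cells, 17 of them in a single cell. Lcn2 had 2 UMIs in WT and 149 in KO, 91 of them in a single cell, and the interval of its share of cells held the 18.6% of elongating spermatid-like cells. The 20 macrophage markers themselves were alike in the 2 libraries, with 13147 CPM in WT and 15408 in KO, none of the 20 at least 2-fold different. Markers of other cells differed in the same class, with peritubular and fibroblast markers at 777 CPM in WT and 1982 in KO, Leydig markers at 86.0 and 590, spermatogonia markers at 55.3 and 359, and elongating spermatid markers at 70204 and 41836. Their part in the values of this class was not tested.

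The remaining genes were expressed in macrophage-like cells of both libraries. Ccl2 (chromosome 11, 82035571 to 82037453) had 22 UMIs in WT and 92 in KO, or 67.6 CPM (42.4 to 102) against 115 (92.5 to 141), a log2 ratio of 0.76 (0.08 to 1.51). These cells held 78.6% of all Ccl2 UMIs in WT and 62.6% in KO. Nfkbia stood at 237 CPM (187 to 296) in WT and 449 (404 to 498) in KO, a log2 ratio of 0.92 (0.57 to 1.30). Nfkbiz (0.77, 0.12 to 1.48), Socs3 (0.72, 0.01 to 1.48) and Irf1 (0.87, -0.44 to 2.44) had log2 ratios of similar size, with intervals down to or near 0, and Cebpd stood at 70.7 CPM in WT and 73.6 in KO. After thinning, Socs3 was at -0.05 and the median of the 9 genes at 0.15.

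Cd52 had 78 UMIs in WT and 140 in KO macrophage-like cells, or 240 CPM (189 to 299) against 175 (147 to 206), a log2 ratio of -0.46 (-0.87 to -0.04). This direction rested on a single WT cell with 45 of the 78 UMIs. Without it WT stood at 103 CPM and the log2 ratio was 0.76 (0.20 to 1.35), and without the highest cell of each library it was 0.52 (-0.05 to 1.12). The share of cells with a Cd52 UMI was 30.8% in WT and 37.0% in KO, and 19.2% (6.55 to 39.4) and 23.5% (14.8 to 34.2) after thinning, so no direction is drawn for Cd52 in these cells. In the WT library Cd52 was higher in macrophage-like than in Leydig-like cells, at 240 against 38.6 CPM, while in the KO library the Leydig-like level was the higher of the pair, at 309 against 175 CPM.

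**Figure D4:**
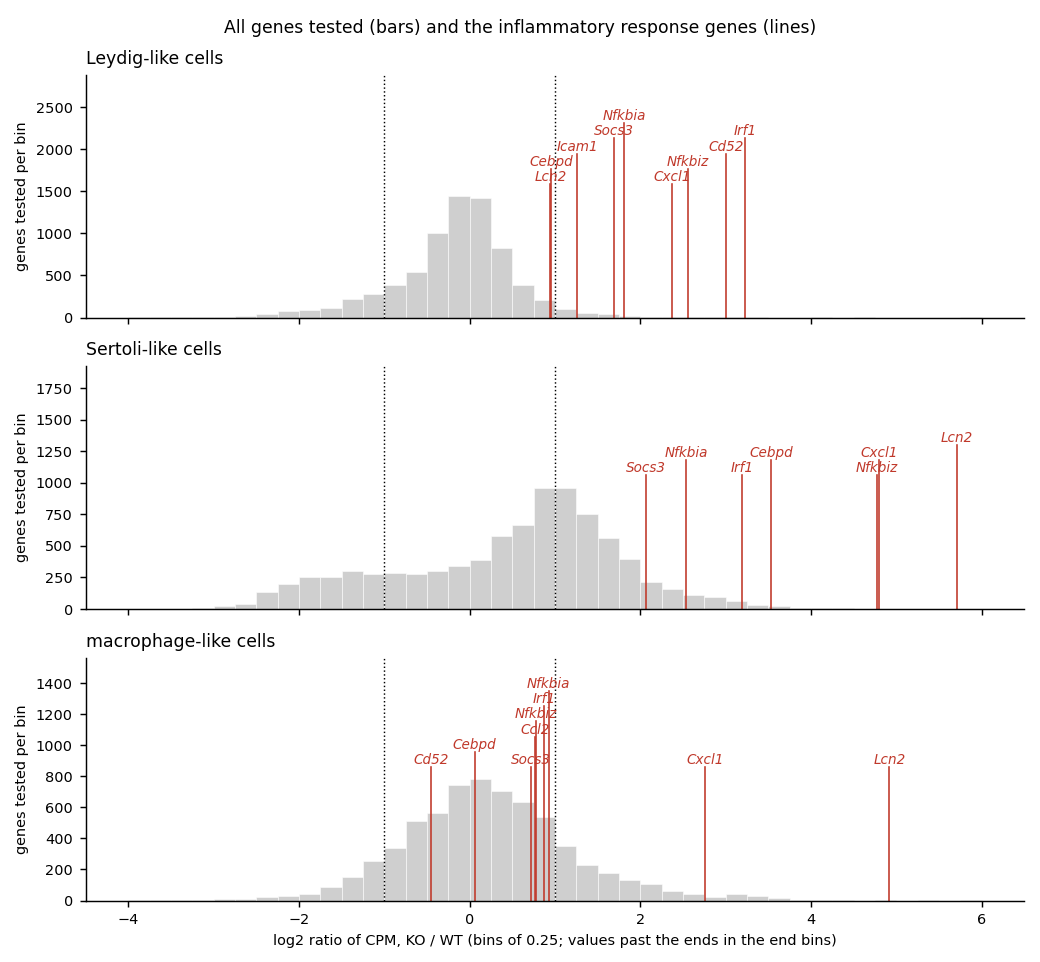
Number of genes compared per 0.25 of log2 ratio, KO over WT (grey bars), with the inflammatory response genes that passed the filter as red lines and 2-fold limits dotted, in Leydig-like, Sertoli-like and macrophage-like cells. In Leydig-like cells the lines lie from 0.95 to 3.23, right of the bulk around -0.093, in Sertoli-like cells the bulk itself is shifted to 0.75, and in macrophage-like cells 7 of 9 lines lie within the 2-fold limits.

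The 24 endothelial-like cells of the KO library carried several of these genes at high levels. Nfkbia stood at 3147 CPM (2876 to 3436), Irf1 at 779 (647 to 929), Cxcl1 at 772 (641 to 922), Cebpd at 766 (636 to 915) and Socs3 at 646 (527 to 784). For each of these 5 genes except Cxcl1, the endothelial-like level was the highest of the KO somatic and macrophage classes, beyond the counting intervals. Cxcl1 was higher in Leydig-like cells, at 1091 CPM. Icam1, a classical endothelial adhesion molecule, was at 82.3 CPM (43.8 to 141) from 13 UMIs, against 16.2 CPM in KO Leydig-like cells. Cd52 and Ccl2 had 0 UMIs, with an exact upper limit of 23.4 CPM. The WT library had 1 such cell, so no comparison was made.

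Seen over the whole library, Irf1 rested on 49 UMIs in WT (0.610 CPM) and 2333 in KO (28.4 CPM), and Cxcl1 on 233 (2.90 CPM) and 14168 (173 CPM). These whole-library levels combine the number of cells and the level per cell, as Leydig-like cells were 94 of 5756 WT and 1171 of 7012 KO barcodes. In KO, Leydig-like cells held 71.8% of the Irf1, 79.1% of the Cxcl1, 90.1% of the Cebpd and 88.0% of the Socs3 UMIs. When all germ-like cells were pooled, Lcn2 alone of the 10 genes passed the filter. Spermatogonia-like cells also carried Irf1, at 13.5 CPM (8.53 to 20.2) in WT and 22.8 (19.7 to 26.3) in KO, and these cells held 46.9% of the WT library's Irf1 UMIs.

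Over 15 sums of class and library with at least 20 cells, the genes whose log2(CPM + 10) followed that of Nfkbia most closely were Gyg, Rhob and Elf1 (Pearson r from 0.983 to 0.989), and those that followed Ccl2 were Trem2, Plek and Wfdc17 (0.997 to 0.998). Trem2 and Wfdc17 are macrophage genes. Socs3 was followed by Pnp, H2-T23 and Cebpd (0.982 to 0.990), Cebpd by Samd9l, H2-T23 and Wls (0.984 to 0.991), Nfkbiz by Atf3, Ddx58 and Ly96 (0.959 to 0.974) and Icam1 by Gm12250, Spry1 and Ablim1 (0.969 to 0.979). Lcn2 was followed by Mrap, Gsta3 and Gstt1 (0.958 to 0.966), and Cd52 by Trps1, Cd14 and Agmo (0.944 to 0.960). The points share 2 libraries and few classes, so these values describe the pattern only.

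Of the wider response, immediate early genes stood out in Leydig-like cells, with 12 of 18 at least 2-fold higher in KO (3.19% of all genes), none lower, and a median log2 ratio of 1.32. These are the first genes transcribed after stress or a growth signal. Ier3 had a log2 ratio of 2.36 (2.08 to 2.65), Atf3 of 1.93 (1.70 to 2.17) and Btg2 of 1.90 (1.70 to 2.12). Heat shock genes had none of 10 at least 2-fold higher, with a median of 0.32 and Bag3, a co-chaperone, at 0.88 (0.36 to 1.44). In Sertoli-like cells 13 of 16 immediate early genes were at least 2-fold higher (39.2% of all genes, median 1.83), with Atf3 at 3 UMIs in WT and 2029 in KO, a log2 ratio of 6.06 (4.52 to 8.34). In macrophage-like cells none of 17 was at least 2-fold higher (18.4% of all genes) and Klf2, a factor that keeps myeloid cells quiescent, was lower at -1.06 (-1.33 to -0.78). Atf3 stood at 1192 CPM in WT and 1814 in KO macrophage-like cells. Since dissociation also induces these genes, they are given as values that moved with the 10 genes in Leydig-like and Sertoli-like cells, and their part in the result was not tested.

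STAT3, C/EBP and acute phase genes had 5 of 12 at least 2-fold higher and 1 lower in Leydig-like cells (median 0.63). Beside this and each list that follows, 3.19% of all genes compared were at least 2-fold higher and 11.9% lower (median -0.093). Pim1, a kinase induced by STAT factors, had 3 UMIs in WT and 293 in KO, which gave a log2 ratio of 3.30 (1.74 to 5.59). Serpina3n, an acute phase protease inhibitor, was at 26.0 CPM in WT and 129 in KO (2.31, 1.76 to 2.92), and Orm1, the acute phase protein orosomucoid, at 11.6 and 47.2 CPM (2.03, 1.21 to 2.99). Interferon response genes had 3 of 19 at least 2-fold higher (median 0.39), among them Isg15, a ubiquitin-like protein induced by interferon, at 2.14 (0.89 to 3.78). Of other cytokines and chemokines 6 of 29 could be compared and 1 was at least 2-fold higher. This was Cxcl10, a chemokine for activated T cells, with 8 UMIs in WT and 1431 in KO, a log2 ratio of 4.18 (3.19 to 5.39). Genes of the NF-kB core had 1 of 8 at least 2-fold higher in Leydig-like cells, namely Rela at 1.02 (0.11 to 2.10), and receptors and adaptors 1 of 11, namely Myd88 at 1.08 (0.21 to 2.10). The 2 genes compared among receptors of the ligands and adhesion partners were Vcam1 at 0.41 (0.36 to 0.47) and Slc22a17, a receptor for lipocalin 2, at 0.00 (-0.46 to 0.50).

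In Sertoli-like cells the NF-kB core had 8 of 11 genes at least 2-fold higher (median 1.74), interferon response 10 of 10 (2.32) and STAT3, C/EBP and acute phase 5 of 5 (1.63), beside 39.2% of all genes. Heat shock genes had 5 of 8 (1.06), receptors and adaptors 5 of 11 (0.98), and other cytokines and chemokines 1 of 3 (0.26). Timp1, a protease inhibitor induced by cytokines, had 0 UMIs in WT and 364 in KO. Slc22a17 was lower, with 11 UMIs in WT and 19 in KO, a log2 ratio of -2.55 (-3.69 to -1.33).

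In macrophage-like cells 6 of 10 other cytokines and chemokines were at least 2-fold higher in KO and 1 lower (median 1.24), against 18.4% and 9.44% of all genes. Ccl8, a monocyte chemokine, stood at 587 CPM in WT and 4884 in KO, a log2 ratio of 3.06 (2.85 to 3.27), and Ccl4 at 138 and 679 CPM (2.30, 1.86 to 2.77). Ccl5, a chemokine for T cells and monocytes, was lower, with 91 UMIs in WT and 8 in KO (-4.81, -6.06 to -3.77). How the UMIs of these chemokines were spread over cells was not examined. Lymphoid markers in this class summed to 252 CPM in WT and 162 in KO, and their part was not tested. The NF-kB core had 3 of 8 genes at least 2-fold higher (0.81), with Tnfaip3, the feedback inhibitor A20, at 1.70 (0.36 to 3.40). Heat shock genes had 4 of 10 (0.82), interferon response 2 of 12 (0.33), near the share of all genes, STAT3, C/EBP and acute phase 2 of 4 (1.02), and receptors and adaptors none of 6 (-0.48). Vcam1 was higher at 1.63 (0.91 to 2.42) and the integrin Itgb2 lower at -1.49 (-2.64 to -0.36).

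**Figure D5:**
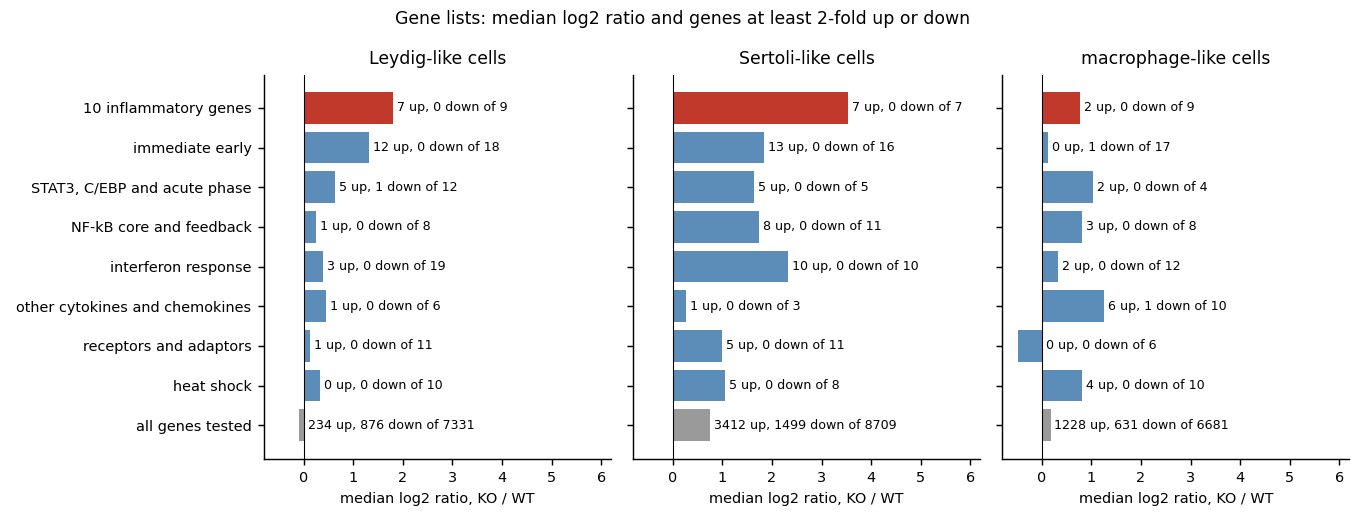
Median log2 ratio, KO over WT, of the 10 inflammatory response genes (red), 7 wider lists (blue) and all genes compared (grey) in 3 cell classes, with the genes at least 2-fold up or down of those compared printed at each bar. Beside the red bar, immediate early genes have the longest bar in Leydig-like cells (12 of 18), interferon genes in Sertoli-like cells (10 of 10), and other cytokines and chemokines in macrophage-like cells (6 of 10).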

How the data were processed

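Testis cells of 1 WT and 1 KO library, prepared on the Singleron GEXSCOPE platform, were deposited by the authors as counts of UMIs per gene and barcode, not normalized. Per the labels, the submitters' processing notes name FastQC 0.11.7, fastp 1, STAR 2.5.3a, featureCounts 1.6.2 and Seurat 3.2.2n. The methods name a human genome build, although the gene symbols in the deposited counts are those of the mouse, so positions come from a GRCm38 annotation.

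All barcodes passed the study's limit of 500 genes. The libraries were integrated and clustered in Seurat 5.3.0 under R 4.3.3 (2000 variable features, 20 anchor dimensions, 30 components, resolution 0.3), and a cluster was named from at least 3 markers found in at least 10% of its cells at 2-fold. Scrublet, in scanpy 1.11.5, called 4 of 94 WT and 76 of 1171 KO Leydig-like cells doublets, 38 of 468 KO Sertoli-like and 5 of 81 KO macrophage-like cells, and none in those 2 WT classes. These cells were kept, and removed in an alternative.

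UMIs were summed per class and library in Python 3.11.15 (numpy 2.4.6, scipy 1.17.1, pandas 2.3.3) and given per 1000000. Levels have exact Poisson, shares Clopper-Pearson and ratios exact conditional 95% intervals. Where WT had 0 UMIs the ratio is against 3 counts, and list medians use that value. Shares of cells were compared after thinning every cell to 4000 UMIs, which left out 0 cells. With 1 library per genotype no test was made. The calculation was tested on simulated data. The 10 genes, the lists and the markers were chosen with earlier results of these data known. From each list the 3 genes with the largest ratio per class were eligible to be named, and the genes most like each of the 10 were ranked by Pearson correlation over class sums. That ranking is not reported here for Irf1 and Cxcl1. Alternatives changed the clustering, depth, gene and cell filters and the totals.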

Additional observations from a re-analysis of the deposited data

Results flagged for a closer look

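Cd52 had log2 ratios of KO over WT of both signs in the cell classes of the same 2 libraries, 3.0 in Leydig-like cells, -2.11 in Sertoli-like cells and -0.46 in macrophage-like cells. The difference between the classes was not tested, since each genotype had 1 library. The macrophage-like sign rested on a single WT cell with 45 of 78 Cd52 UMIs and was 0.76 without it. The Sertoli-like value rested on 6 WT and 14 KO UMIs and lay below the filter. Over the alternatives the Leydig-like value ran from 2.75 to 3.11, the macrophage-like value from -1.32 to 0.76 and the Sertoli-like value from -3.63 to -2.03.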

How the results depend on the processing

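No paired analysis was possible because each genotype had 1 library, and for the same reason no replicate could be left out. No ratio of at least 2-fold changed sign, while the Cd52 ratio in macrophage-like cells, under 2-fold, went from -0.46 to 0.76 without 1 WT cell and to 0.52 without the highest cell of each library. Over the 10 genes, and leaving aside settings that could not change a ratio or repeated another, 22 of 113 recomputed ratios in Leydig-like cells lay outside the counting interval of the reported value, 8 of 67 in Sertoli-like and 11 of 89 in macrophage-like cells. Counts over all genes depended more on the settings, and the cause was not tested. Genes at least 2-fold lower in KO Leydig-like cells, 876 as reported, numbered 281 at resolution 0.8, 357 without integration, 358 after thinning, 409 without 13661 germ cell genes and 139 with a UMI required in 25% of cells. Genes at least 2-fold higher there, 234 as reported, numbered 142 after thinning and 72 at 25%. In Sertoli-like cells 2035 genes were higher and 920 lower at 25%, 955 were lower without germ cell genes, and the median of the inflammatory response genes was 2.25 after thinning. In macrophage-like cells 470 genes were higher and 239 lower after thinning, and 620 were higher at 25%. Of 6 alternatives chosen after seeing the data, leaving out the Leydig-like cells that moved at resolution 0.8 gave 281 lower genes, leaving out cells with stromal transcripts 385 higher and 303 lower, keeping cells with Insl3, Cyp17a1 and Hsd3b1 285 lower, and leaving out cells with any macrophage or lymphoid marker 417 lower. The requirement of 1000 genes per cell left out no somatic cell.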
